A study of Mus musculus with 6 samples.

Results

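The genes described here encode the proteins of the cytosolic ribosome and of the mitochondrial ribosome. They were taken by name: a symbol starting Rpl, Rps, Mrpl or Mrps followed by a digit, without names holding -ps and without the S6 kinase genes. The rule found 164 genes among the 37991 genes of the count tables. Of these, 87 belong to the cytosolic ribosome (50 large-subunit and 37 small-subunit names) and 77 to the mitochondrial ribosome (48 and 29). A further 3 symbols of the reference, Rpl24, Mrpl33 and Rpl32l, matched no identifier in the tables and are not analysed here.

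The study sequenced RNA from liver and liver tumours of mice on a high-fat diet, 2 libraries in each of 3 groups. The tumours and the KAP1-deleted livers carried an Alb-Cre transgene together with a loxP-flanked Kap1 allele, and the control livers carried Alb-Cre alone. KAP1, encoded by Trim28, is a scaffold protein that represses transcription at sites chosen by zinc finger proteins. All groups had 27 weeks of the diet and were killed at 35 weeks of age. The albumin promoter drives Cre in hepatocytes, so other liver cells of these mice keep an intact Kap1. Each tumour shares its mouse code with 1 of the KAP1-deleted livers, so the 2 tumours and 2 livers come from the same 2 mice, and p-values measure the spread between these few libraries.

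The cytosolic ribosome translates the messenger RNAs of the nucleus, and its many proteins are made from short, abundant, evenly expressed transcripts. In mammals most of those transcripts begin with a stretch of pyrimidines (the 5′ TOP motif), through which the kinase mTOR and the RNA-binding protein LARP1 control their translation. The mitochondrial ribosome makes the few proteins encoded by mitochondrial DNA, all of them parts of the respiratory chain or the ATP synthase. Its own proteins are encoded in the nucleus and imported, and their promoters often hold sites for NRF1, for ETS family factors such as GABP, and for YY1.

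Annotated start sites were searched for these motifs, and 4 windows are shown because their genes recur in the results. Each runs from 100 bases before to 20 bases after the annotated start, from the RefSeq promoter table on GRCm38.p6, read 5′ to 3′ on the gene's strand. Rps9 lies at chr7:3703941-3704060 (plus strand), Rps6 at chr4:86857348-86857467 (minus strand), Mrpl12 at chr11:120484537-120484656 (plus strand) and Mrps15 at chr4:126046828-126046947 (plus strand). Capitals mark a run of at least 8 C or T that touches the 10 bases on either side of the start, the NRF1 motif (GCGC, any base, TGCGC) or the ETS motif CCGGAAG.
Rps9: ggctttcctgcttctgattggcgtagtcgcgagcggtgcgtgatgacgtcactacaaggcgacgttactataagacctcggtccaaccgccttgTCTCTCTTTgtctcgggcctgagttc
Rps6: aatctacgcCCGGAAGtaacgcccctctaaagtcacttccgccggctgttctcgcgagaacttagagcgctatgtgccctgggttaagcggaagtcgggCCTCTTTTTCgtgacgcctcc
Mrpl12: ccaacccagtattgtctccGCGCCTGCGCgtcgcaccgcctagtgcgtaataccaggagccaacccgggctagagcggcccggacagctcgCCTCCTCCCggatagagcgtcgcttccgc
Mrps15: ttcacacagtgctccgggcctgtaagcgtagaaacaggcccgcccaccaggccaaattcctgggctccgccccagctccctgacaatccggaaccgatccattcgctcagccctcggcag

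RefSeq windows of 250 bases before to 50 after the start were matched for 131 of the 164 genes. The pyrimidine run was present in 38.7% of 75 cytosolic windows and in 12.2% of 74 mitochondrial windows, against 13.7% of all 32851 windows. The NRF1 motif, searched on both strands, occurred in 6.67% of cytosolic and 17.6% of mitochondrial windows, against 4.60% of all. The ETS motif CCGGAAG was found in 33.3% and 33.8%, against 8.86% of all windows, and the YY1 motif AAGATGGC in 10.7% and 16.2%, against 2.75%. The E-box CACGTG, the site of MYC and MAX, occurred in 10.7% and 9.46%, against 7.15%. A match describes the letters in the window and is no measurement of binding.

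Gene counts per library were 55316370 and 43173982 in tumours, 50977644 and 53744834 in KAP1-deleted livers, against 39723997 and 62178752 in control livers. Levels are given as CPM, counts scaled to a library of fixed size after TMM scaling, which sets the libraries to a common level for most genes. Trim28 had 5.22 and 4.59 CPM in tumours and 5.06 and 6.02 CPM in KAP1-deleted livers, against 32.5 and 35.9 CPM in control livers. Hepatocyte markers (6 genes) summed to 22257 and 40893 CPM in tumours, against 69507 to 87064 CPM in the 4 livers. Genes of dividing cells (8 genes) summed to 53.3 and 81.0 CPM in tumours, against 10.3 to 14.5 CPM in the 4 livers. Macrophage markers (6 genes) summed to 122 and 146 CPM in tumours, against 297 to 310 CPM in the 4 livers. By edgeR's quasi-likelihood test 3 and 4 of the 6 were called lower over KAP1-deleted and control livers. Of all genes tested, 6.64% and 7.76% were called lower there. Endothelial markers (6 genes) summed to 191 and 172 CPM in tumours, against 252 to 276 CPM in the 4 livers. Stellate cell markers (7 genes) summed to 166 and 225 CPM, against 233 to 304 CPM, but the single genes went both ways. Their median log2 fold change was 0.46 over KAP1-deleted and 0.48 over control livers. In each comparison 4 of the 7 lay above the median of all genes, while 3 and 2 were lower at an unadjusted p under 0.05 (edgeR's quasi-likelihood test). Cholangiocyte markers (5 genes) summed to 3.05 and 22.0 CPM in tumours, against 15.4 to 34.4 CPM in the 4 livers, and T cell markers (6 genes) to 2.83 and 8.38 CPM, against 1.54 to 3.24 CPM. By edgeR's quasi-likelihood test, 2 of 6 hepatocyte and 1 of 6 endothelial markers were called lower in each tumour comparison. Of the genes of dividing cells, 6 of 8 were called higher in each, and 1 T cell marker was called higher over control livers. Of all genes, 4.8% and 6.15% were called higher. No stellate cell or cholangiocyte marker was called by that test. The part of these cell types in the values of the ribosomal protein genes was not tested. Reads counted in no annotated gene made up 35.0% and 31.3% in tumours, 22.3% and 18.1% in KAP1-deleted livers, against 25.2% and 18.0% in control livers. In bulk tissue, fewer cells of a type and less RNA per cell cannot be told apart.

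Transcripts of the cytosolic ribosome were the more abundant by an order of magnitude. Per kilobase of exon, the 78 protein-coding cytosolic genes that passed the count filter had a median of 54.2 CPM per kb over the 6 libraries (interquartile range 29.5 to 86.7). The 76 mitochondrial genes that passed had a median of 5.69 CPM per kb (2.85 to 9.87), a ratio of medians of 9.53. Among cytosolic genes the extremes were Rps3a1, a small-subunit protein, at 256 CPM per kb and Rps19bp1, which binds RPS19 and is not a subunit, at 3.48 CPM per kb. Among mitochondrial genes they were Mrpl27 at 19.4 CPM per kb and Mrps34 at 0.318 CPM per kb. Only 26.2% of the 31-base words of Mrps34 and 23.1% of those of Rps3a1 occur in no other annotated gene. Reads of both genes may therefore be hard to place.

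By count, Rpl7 led the cytosolic genes, with 291 and 291 CPM in tumours, 269 and 286 CPM in KAP1-deleted livers, against 355 and 275 CPM in control livers. Mrpl50 led the mitochondrial genes, with 36.8 and 41.2 CPM in tumours, 40.3 and 41.7 CPM in KAP1-deleted livers, against 40.6 and 41.8 CPM in control livers. For neither gene did both tumours lie on one side of all 4 livers. At the low end, Rpl10l and Mrpl53 had no count in any library, and Rpl39l and Rpl3l, copies known from testis and from muscle, had too few to be tested. The filter on low counts therefore left 84 cytosolic and 76 mitochondrial genes. Only 15.6% of the words of Mrpl53 are unique and 1 other gene shares words with it, so its reads may be hard to place. The part of this in its lack of counts was not tested, and that lack does not show that Mrpl53 is silent.

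Sequence shared with other annotated genes makes some of these counts uncertain. A median of 72.9% of the 31-base words of a cytosolic gene occurred in no other annotated gene (range 0% to 100%), and 12 of 87 genes had under 50%. For mitochondrial genes the median was 93.4% (range 15.6% to 100%), and 3 of 77 had under 50%. The rule also took 6 processed pseudogenes (Rps12l1, Rps3a2, Rps3a3, Rpl6l, Rpl37rt and Rps4l), Rps19bp1, the assembly factor Rpl7l1, and Mrps36, now known as part of the 2-oxoglutarate dehydrogenase complex.

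**Figure D1:**
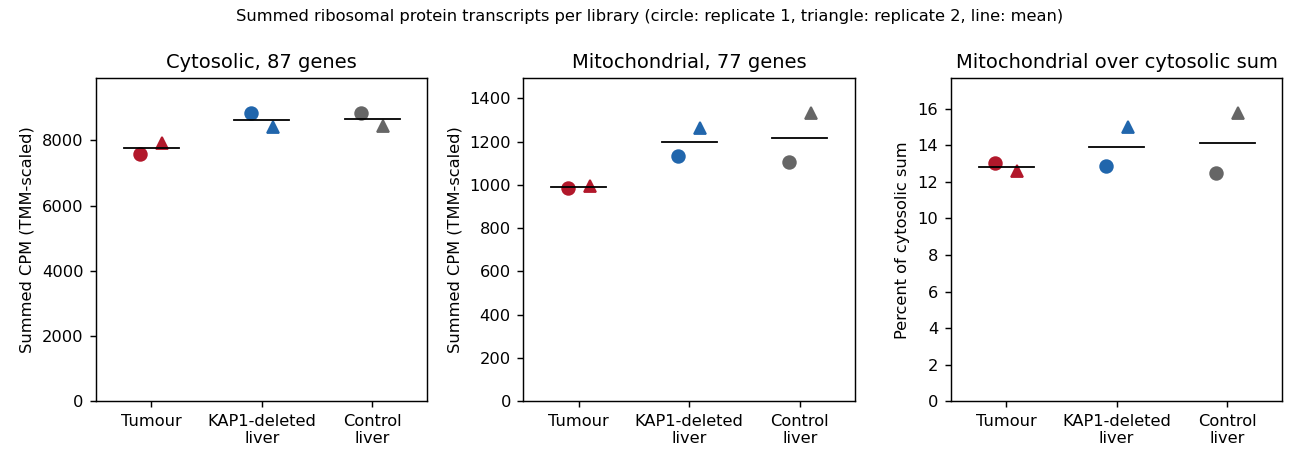
Summed TMM-scaled CPM of the cytosolic genes (left) and the mitochondrial genes (middle), and the mitochondrial sum as a percentage of the cytosolic sum (right), for each of 6 libraries; circles are replicate 1, triangles replicate 2 and lines group means. Both sums were lowest in the 2 tumours (7596 and 7921 CPM; 988 and 996 CPM), while the percentage overlapped between all 3 groups; as shares of all gene counts the cytosolic genes were highest in tumours.

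On the TMM scale, each library devoted a similar part of its counts to the cytosolic ribosome, with the tumours lowest, an order that the unscaled shares given next reverse. The 87 genes summed to 7596 and 7921 CPM in tumours, 8829 and 8412 CPM in KAP1-deleted livers, against 8840 and 8451 CPM in control livers. The 77 mitochondrial genes summed to 988 and 996 CPM in tumours, 1134 and 1262 CPM in KAP1-deleted livers, against 1105 and 1332 CPM in control livers. On this scale both tumours lay below all 4 livers for both ribosomes, and the 2 liver groups overlapped.

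That order depended on the scale. As a percentage of all gene counts, the cytosolic genes held 0.994% and 0.963% in tumours, 0.763% and 0.739% in KAP1-deleted livers, against 0.771% and 0.801% in control livers. Mitochondrial genes held 0.129% and 0.121% in tumours, 0.0980% and 0.111% in KAP1-deleted livers, against 0.0964% and 0.126% in control livers. In unscaled shares, then, the tumours were highest for the cytosolic ribosome and overlapped the control livers for the mitochondrial one. The TMM factors behind the difference were 1.31 and 1.22 in tumours, 0.864 and 0.878 in KAP1-deleted livers, against 0.872 and 0.948 in control livers. For this reason the changes of each ribosome are given below relative to the median of all genes, a quantity that the scaling hardly moves.

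The ratio of the 2 ribosomes does not depend on scaling. Mitochondrial counts came to 13.0% and 12.6% of cytosolic counts in tumours, 12.8% and 15% in KAP1-deleted livers, against 12.5% and 15.8% in control livers. Within the mouse code series of replicate 1 the values were 13.0% in the tumour, 12.8% in the KAP1-deleted liver and 12.5% in the control liver, and within that of replicate 2 they were 12.6%, 15% and 15.8%. The groups overlapped, and the spread inside each liver group was wider than the distance between groups. On the log2 scale the ratio averaged -2.97 ± 0.03 in tumours, -2.85 ± 0.16 in KAP1-deleted livers and -2.83 ± 0.24 in control livers (SD, n = 2 each). With 2 libraries against 2, the smallest two-sided p of an exact permutation test is 0.33, so no test of this ratio was made.

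Inside both liver groups, replicate 2 had the higher mitochondrial sum. Of 76 mitochondrial genes, 40 were higher in replicate 2 than in replicate 1 of the tumours, 65 in the KAP1-deleted livers and 66 in the control livers. The median difference, replicate 2 over replicate 1, was 0.16 log2 in KAP1-deleted livers and 0.28 log2 in control livers. For the cytosolic genes the same counts were 53 of 84 in tumours, 37 in KAP1-deleted livers and 46 in control livers, and for all genes the shares were 49.7%, 49.0% and 50.5% in that order. Mrpl49, a large-subunit protein, was among the widest, with 11.4 and 11.8 CPM in tumours, 12.8 and 16.1 CPM in KAP1-deleted livers, against 10.4 and 21.1 CPM in control livers. The replicate numbers follow the series of the mouse codes; the labels do not say what the series stand for.

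The balance between subunits, assigned by the letter L or S in the symbol, was compared within each library. A name need not give the true place of a protein: Mrps36, counted as small, is now known as part of another complex. Large-subunit counts were 1.36 and 1.38 times the small-subunit counts of the cytosolic ribosome in tumours, 1.28 and 1.34 times in KAP1-deleted livers, against 1.29 and 1.33 times in control livers. For the mitochondrial ribosome the ratio was 2.42 and 2.45 in tumours, 2.17 and 2.20 in KAP1-deleted livers, against 2.29 and 2.26 in control livers. Both tumours were above all 4 livers in each ribosome, by a wider margin in the mitochondrial one. These ratios too are free of the scaling, and their differences were not tested.

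Liver outside the tumours, which for the KAP1-deleted group comes from the tumour-bearing mice, had no called change in either ribosome. In KAP1-deleted livers against control livers, 0 of 84 cytosolic and 0 of 76 mitochondrial genes were called, higher or lower, at an adjusted p under 0.05 by edgeR's quasi-likelihood test, where 0.336% of all genes tested were called, 0.239% higher and 0.0968% lower. DESeq2 and limma-voom likewise called 0. At an unadjusted p under 0.05 there were 0 cytosolic genes and 1 mitochondrial gene, against 3.27% of all genes higher and 2.17% lower. The median log2 fold change was -0.04 for the cytosolic and -0.02 for the mitochondrial genes, beside 0.00 for all genes. Libraries of the 2 groups did not overlap for 7 cytosolic genes higher and 19 lower, and for 6 mitochondrial genes higher and 9 lower, where 16.7% of all genes were higher and 14.6% lower. Leaving out a library moved the mitochondrial median between -0.18 and 0.16, and the cytosolic one between -0.07 and -0.02.

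The mitochondrial gene under the unadjusted threshold was Mrpl38, a protein of the large subunit. It had 16 and 16.2 CPM in KAP1-deleted livers, against 23.3 and 22.2 CPM in control livers. The groups did not overlap, with a log2 fold change of -0.50 ± 0.16 (SE) and an adjusted p of 0.583 by edgeR's quasi-likelihood test (unadjusted p = 0.0154), so it was not called. Next in order came Mrps30 at 0.29 and Mrps2 at 0.27 log2. Among cytosolic genes the smallest p-values belonged to Rpl23a, with 10.2 and 11.3 CPM in KAP1-deleted livers, against 14.6 and 13.3 CPM in control livers, then to the retrotransposed copy Rpl37rt and to Rpl39. None of these was called.

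**Figure D2:**
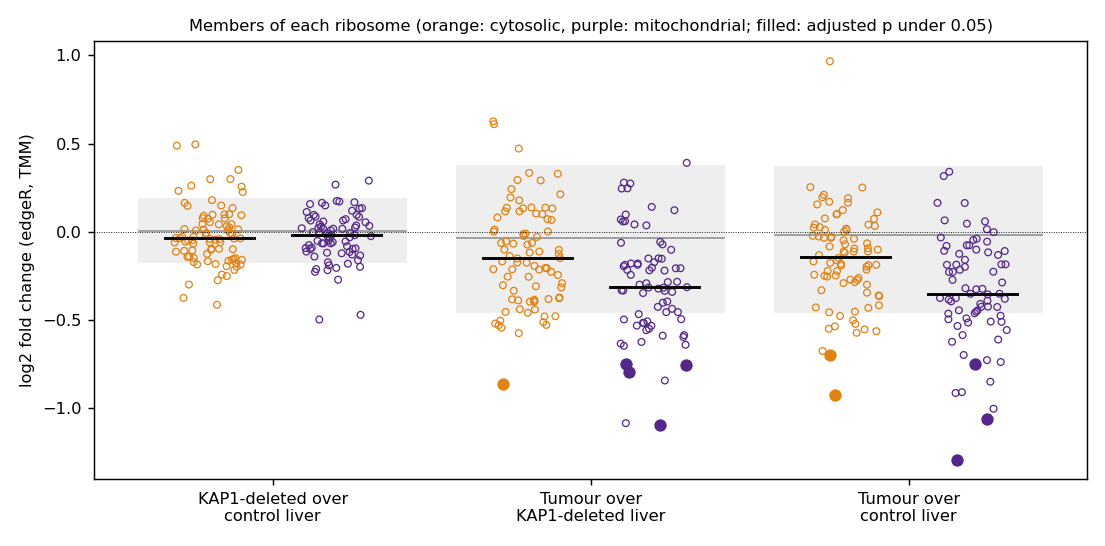
Log2 fold change of each gene tested (84 cytosolic in orange, 76 mitochondrial in purple) in 3 comparisons; black lines are medians, grey bands the interquartile range of all 17558 genes, grey lines their median, and filled points have an adjusted p under 0.05 by edgeR's quasi-likelihood test. The mitochondrial medians were -0.02, -0.32 and -0.35 and the cytosolic medians -0.04, -0.15 and -0.14; with gene totals as the scale both tumour medians of each ribosome turned positive.

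Against the KAP1-deleted livers of the same mice, tumours had lower levels of 5 of these genes, 4 of them mitochondrial. Called lower at an adjusted p under 0.05 (edgeR's quasi-likelihood test) were Mrps24, Mrpl38, Mrpl12, Mrps15 and, in the cytosolic ribosome, Rps2. That is 1 of 84 cytosolic and 4 of 76 mitochondrial genes, in a comparison where 11.4% of all genes were called, 4.8% higher and 6.64% lower. No member was called higher; 2 cytosolic genes were higher and 16 lower at an unadjusted p under 0.05, as were 0 and 21 mitochondrial genes, against 11.9% and 17.2% of all genes. DESeq2 called 1 cytosolic gene (Rpl23a) and 0 mitochondrial genes higher, with 3 and 7 lower, and limma-voom called none higher; DESeq2 called 7.14% of all genes higher and 9.03% lower. With the mouse as a block, which pairs each tumour with the liver of its own mouse, 2 cytosolic and 11 mitochondrial genes were called lower and 1 cytosolic gene, Rpl23a, higher. That fit called 13.2% of all genes lower and 8.95% higher.

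As groups, both ribosomes sat below the middle of the transcriptome. The median log2 fold change was -0.15 for the cytosolic and -0.32 for the mitochondrial genes, which is 0.12 and 0.28 below the median of all genes; scaled by gene totals instead, the 2 medians were 0.38 and 0.22 and the median of all genes 0.50. Relative to all genes, the mitochondrial median lay between -0.31 and -0.22 in the other settings and between -0.41 and -0.20 with a library left out. The cytosolic one lay between -0.15 and -0.06, and between -0.16 and -0.07. Below the median of all genes were 54 of 84 cytosolic and 63 of 76 mitochondrial genes. Whether the 2 ribosomes differed from each other was not tested.

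Genes with small-subunit names stood lower than those with large-subunit names in the mitochondrial ribosome. The median was -0.43 for 29 mitochondrial genes with small-subunit names, Mrps36 among them, and -0.22 for 47 with large-subunit names. Of the 29, 27 lay below the median of all genes. In the cytosolic ribosome the medians were -0.17 for 37 genes with small-subunit names and -0.07 for 47 with large-subunit names. Tumours and KAP1-deleted livers did not overlap for 42 cytosolic genes lower and 13 higher, and for 50 mitochondrial genes lower and 7 higher, where 34.8% of all genes were lower and 28.7% higher.

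The comparison of tumours with control livers shares its tumours with the last one, so the values stand side by side. Called lower by edgeR's quasi-likelihood test were 2 of 84 cytosolic genes (Rps2 and Rps9) and 3 of 76 mitochondrial genes (Mrpl38, Mrps24 and Mrpl12), and none was called higher, where 13.9% of all genes were called, 6.15% higher and 7.76% lower. At an unadjusted p under 0.05 there were 0 cytosolic genes higher and 15 lower, and 0 and 20 mitochondrial genes, against 12.9% and 17.0% of all genes. DESeq2 called 7 cytosolic and 5 mitochondrial genes lower, where it called 8.3% of all genes higher and 9.84% lower, and neither DESeq2 nor limma-voom called a member higher. The median was -0.14 for the cytosolic and -0.35 for the mitochondrial genes, 0.12 and 0.33 below the median of all genes; by gene totals the medians were 0.34 and 0.12, beside 0.45 for all genes. Without control liver 2, the mitochondrial median was -0.16 in place of -0.35, and -0.14 relative to all genes.

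Groups did not overlap for 37 cytosolic genes lower and 6 higher, and for 46 mitochondrial genes lower and 1 higher, where 29.9% of all genes were lower and 26.5% higher. Both tumours lay below all 4 livers for 31 of 84 cytosolic and 39 of 76 mitochondrial genes, against 24.7% of all genes. Both lay above all 4 livers for 4 cytosolic genes and 1 mitochondrial gene, against 20.3% of all genes. The share of members called was below the share of all genes called, for each ribosome and in both tumour comparisons.

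**Figure D3:**
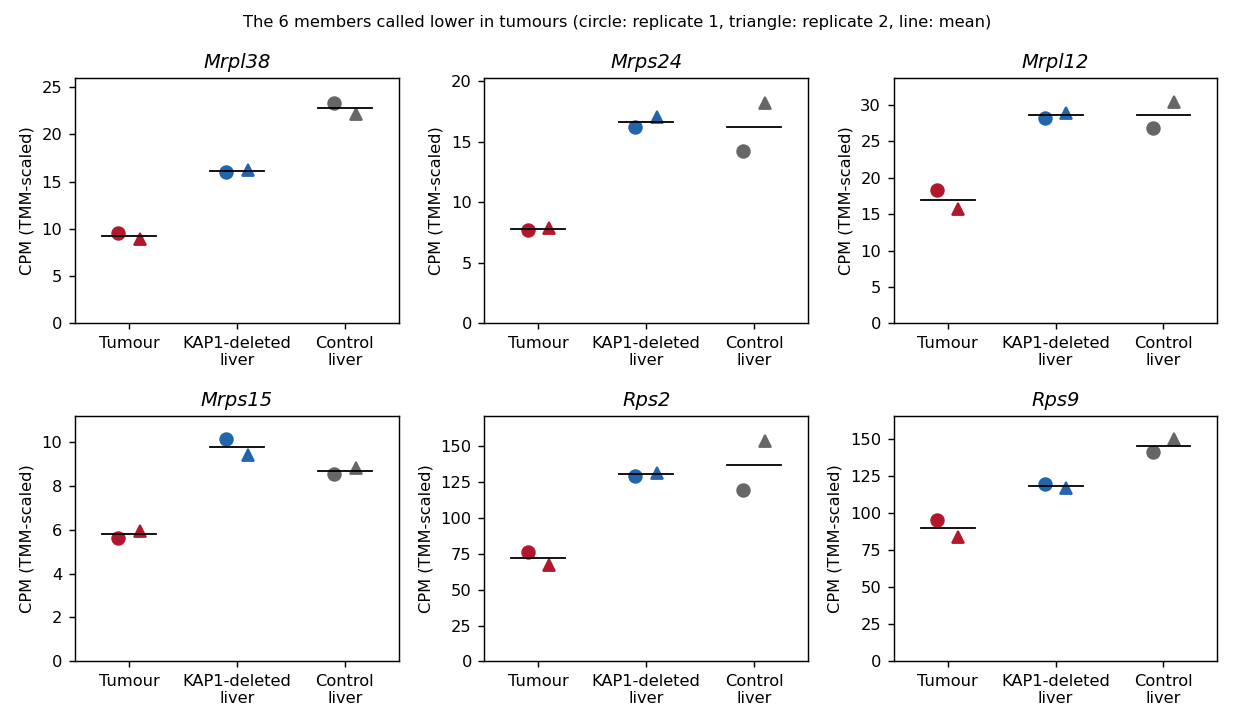
TMM-scaled CPM of the 6 genes called lower in tumours in at least 1 comparison, for each of 6 libraries; circles are replicate 1, triangles replicate 2 and lines group means. In every panel both tumours lie below all 4 livers, and for Mrpl38 the KAP1-deleted livers lie between the tumours and the control livers.

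Mrpl38 had the lowest log2 fold change of all members tested against control livers. Its levels were 9.58 and 8.97 CPM in tumours, 16 and 16.2 CPM in KAP1-deleted livers, against 23.3 and 22.2 CPM in control livers. The 3 groups did not overlap at any point. Tumours were lower than control livers by edgeR's quasi-likelihood test, with a log2 fold change of -1.29 ± 0.16 (SE, adjusted p = 0.00316), and lower than KAP1-deleted livers, with -0.79 ± 0.16 (adjusted p = 0.0222). The call against control livers held in 16 of 16 alternatives, gene totals included, and that against KAP1-deleted livers in 12 of 17. All its 31-base words are unique to it.

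Mrps24, a protein of the small mitochondrial subunit, had 7.66 and 7.88 CPM in tumours, 16.2 and 17.1 CPM in KAP1-deleted livers, against 14.2 and 18.2 CPM in control livers. The tumours stood apart from livers that overlapped each other. By edgeR's quasi-likelihood test the log2 fold change was -1.10 ± 0.19 against KAP1-deleted livers (SE, adjusted p = 0.0122) and -1.06 ± 0.19 against control livers (adjusted p = 0.0114). These calls held in 13 of 17 and 13 of 16 alternatives.

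Mrpl12 encodes the stalk protein of the large mitochondrial subunit, which in human cells also binds the mitochondrial RNA polymerase. It had 18.3 and 15.7 CPM in tumours, 28.2 and 29.0 CPM in KAP1-deleted livers, against 26.8 and 30.4 CPM in control livers, with the tumours again below all livers. Its log2 fold change by edgeR's quasi-likelihood test was -0.75 ± 0.17 against either group (SE, adjusted p = 0.0300 against KAP1-deleted and 0.0265 against control livers). The calls held in 12 of 17 and 9 of 16 alternatives.

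Mrps15, a small-subunit protein that binds the ribosomal RNA, had 5.63 and 5.94 CPM in tumours, 10.1 and 9.41 CPM in KAP1-deleted livers, against 8.54 and 8.83 CPM in control livers. It was called against KAP1-deleted livers (log2 fold change -0.75 ± 0.18, SE, adjusted p = 0.0358, edgeR's quasi-likelihood test) and not against control livers (-0.59, adjusted p = 0.0700). The call held in 11 of 17 alternatives.

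In the cytosolic ribosome, Rps2 and Rps9 encode neighbouring proteins of the small subunit near the channel through which messenger RNA enters. Rps2 had 76.3 and 67.2 CPM in tumours, 129 and 131 CPM in KAP1-deleted livers, against 119 and 154 CPM in control livers. The tumours were below all 4 livers, with log2 fold changes of -0.86 ± 0.19 against KAP1-deleted livers (adjusted p = 0.0292, edgeR's quasi-likelihood test) and -0.93 ± 0.19 against control livers (adjusted p = 0.0200). Only 51.2% of the words of Rps2 are unique and 98 other genes share words with it, so its counts may mix with those of these genes. The calls held in 12 of 17 and 12 of 16 alternatives.

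Rps9 had 95.7 and 84.3 CPM in tumours, 120 and 117 CPM in KAP1-deleted livers, against 142 and 150 CPM in control livers. Like Mrpl38, its 3 groups did not overlap. It was called lower against control livers (log2 fold change -0.70 ± 0.17, SE, adjusted p = 0.0345, edgeR's quasi-likelihood test), a call that held in 8 of 16 alternatives. Against KAP1-deleted livers it was not called (-0.40, adjusted p = 0.171).

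None of the called log2 fold changes of these 6 genes changed sign in any alternative. Scaled by gene totals, only the call of Mrpl38 against control livers was left among them. By edgeR's quasi-likelihood test on that scale, 20 cytosolic and 6 mitochondrial genes were called higher and 0 lower in tumours over KAP1-deleted livers, where 24.6% of all genes were called higher and 2.96% lower. Over control livers 7 cytosolic genes and 1 mitochondrial gene were called higher, where 22.6% of all genes were called higher and 3.57% lower. With TMM and a library left out, the mitochondrial median ran from -0.42 to -0.24 over KAP1-deleted livers and from -0.46 to -0.16 over control livers. The cytosolic median ran from -0.21 to -0.13 and from -0.19 to -0.10. Which members were called, and how many of all genes, changed with the library left out.

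Several genes just missed the threshold. Mrpl34 had 5.10 and 6.32 CPM in tumours, 10.6 and 13.6 CPM in KAP1-deleted livers, against 7.68 and 13.8 CPM in control livers. Its log2 fold change against KAP1-deleted livers, -1.09 ± 0.30, had an adjusted p of 0.0547 by edgeR's quasi-likelihood test. On either side of it in the same comparison were Mrpl20 (adjusted p = 0.0540) and Mrps33 (adjusted p = 0.0565), also by edgeR's quasi-likelihood test. With the mouse as a block, edgeR's quasi-likelihood test called all 3 lower, with an adjusted p of 0.00201 for Mrpl34, 0.0260 for Mrpl20 and 0.0368 for Mrps33, and DESeq2 called all 3 lower too. Against control livers the nearest were Mrps12, the protein at the decoding centre, at 0.0516 and Mrps27 at 0.0532, and in the cytosolic ribosome Rpl28 at 0.0504 and Rpl36 at 0.0533, all adjusted p by edgeR's quasi-likelihood test. Only 5.95% of the words of Rpl36 are unique.

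Among mitochondrial genes, those with a shorter exon length had the lower fold changes. Exon length here joins all annotated exons of a gene, so it is not the length of a transcript. Across 76 genes, Spearman's rho between exon length and log2 fold change was 0.44 for tumours over KAP1-deleted livers and 0.47 for tumours over control livers. The 38 genes at or under the median length of 2394 bases had a median of -0.46 against KAP1-deleted livers, and the 38 longer genes -0.21. The cytosolic genes showed no such gradient, with rho -0.02 and -0.03 (n = 84), nor did all genes with a length, with 0.03 and 0.03 (n = 16523). These are descriptions across genes of the same 6 libraries, in which the share of reads in no annotated gene was also higher in tumours. The part of that share in the gradient was not tested.

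**Figure D4:**
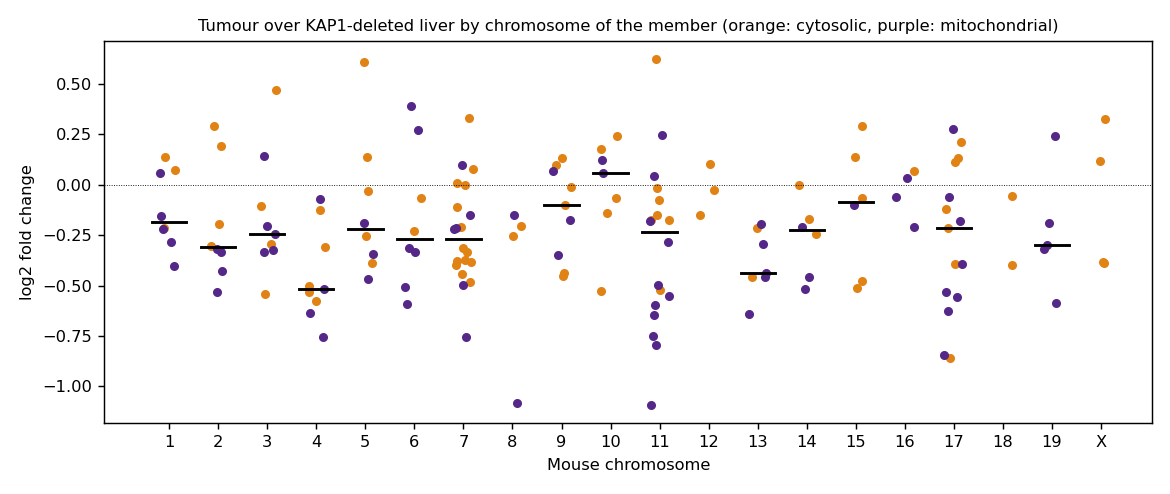
Log2 fold change of tumours over KAP1-deleted livers for each of the 160 genes tested, by mouse chromosome; orange points are cytosolic, purple points mitochondrial, and black lines mark the median where at least 5 genes lie on a chromosome. The 9 genes on chromosome 4 have the lowest median, -0.52.

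The genes lie on most chromosomes, and those on chromosome 4 had the lowest median, a feature singled out after its values were seen. The chromosome holds 5 cytosolic genes tested, Rpl11, Rpl22 and Rps6 among them, and 4 mitochondrial ones (Mrpl20, Mrpl37, Mrpl50 and Mrps15). Their median log2 fold change in tumours over KAP1-deleted livers was -0.50 for the cytosolic genes, against -0.14 for the 79 elsewhere, and -0.58 for the mitochondrial genes, against -0.31 for the 72 elsewhere. All 9 lay below the median of all genes. The 1157 genes of chromosome 4 tested had a median of -0.24, itself the lowest of the chromosomes that hold at least 5 members. There the other medians ran from -0.11 to 0.07. Relative to all genes of their own chromosome, the members of chromosome 4 were not the lowest. On that measure their median was -0.27, where the other chromosomes ran from -0.44 (chromosome 13) to 0.17 (chromosome 10).

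Rps6, the small-subunit protein phosphorylated by the S6 kinases, had 87.4 and 92.6 CPM in tumours, 130 and 126 CPM in KAP1-deleted livers, against 124 and 142 CPM in control livers. Mrpl20, a large-subunit protein, had 14.7 and 18.2 CPM in tumours, 25.5 and 25.7 CPM in KAP1-deleted livers, against 23.6 and 24.9 CPM in control livers. In both genes the tumours were below all 4 livers, and neither was called by edgeR's quasi-likelihood test with TMM. With the mouse as a block, edgeR's quasi-likelihood test called Mrpl20 lower against KAP1-deleted livers (adjusted p = 0.0260). DESeq2 called Mrpl20 lower there (adjusted p = 0.0452) and Rps6 lower against control livers (adjusted p = 0.0339). Unique words made up 55.0% of Rps6. Mrpl50, on the same chromosome, had overlapping groups. The part of the chromosome-wide shift in these values was not tested.

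**Figure D5:**
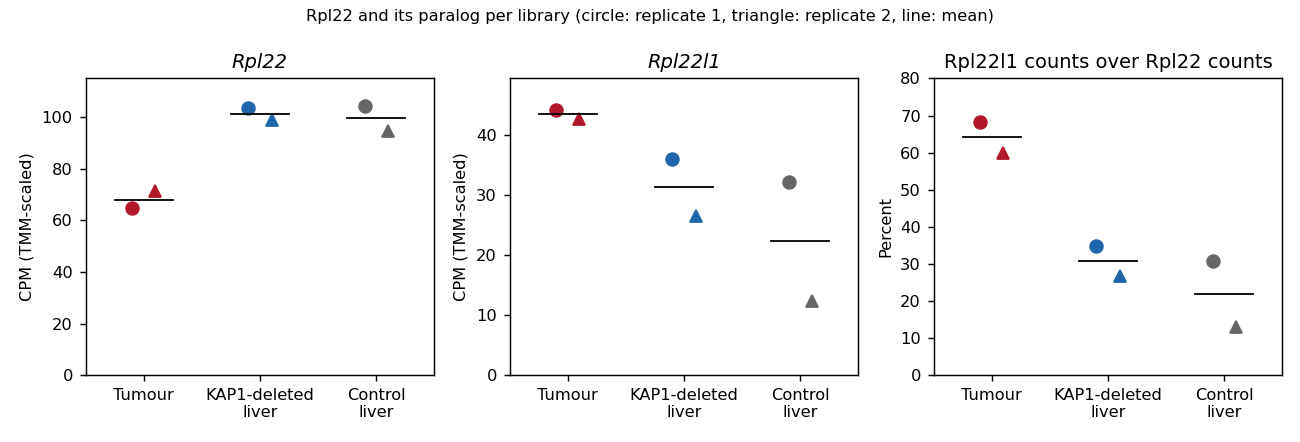
TMM-scaled CPM of Rpl22 (left) and Rpl22l1 (middle), and Rpl22l1 counts as a percentage of Rpl22 counts (right), for each of 6 libraries; circles are replicate 1, triangles replicate 2 and lines group means. The percentage is 68.4 and 60.0 in tumours, 34.9 and 26.9 in KAP1-deleted livers, against 30.8 and 13.2 in control livers.

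Paralogs were set against their partners within each library, as for Rpl22 and Rpl22l1. RPL22 is a protein of the large subunit without which mice are viable, and its paralog RPL22L1 can take its place; in mouse cells RPL22 is known to hold down the RNA of Rpl22l1. Rpl22, on chromosome 4, had 64.6 and 71.2 CPM in tumours, 103 and 98.9 CPM in KAP1-deleted livers, against 104 and 94.5 CPM in control livers. Rpl22l1, on chromosome 3, had 44.2 and 42.7 CPM in tumours, 36.1 and 26.6 CPM in KAP1-deleted livers, against 32.2 and 12.4 CPM in control livers. The tumours were lowest for Rpl22 and highest for Rpl22l1, without overlap. By edgeR's quasi-likelihood test with TMM neither was called: Rpl22 had an adjusted p of 0.0648 against KAP1-deleted and 0.0678 against control livers, and Rpl22l1 of 0.487 and 0.172. DESeq2 called Rpl22 lower in both comparisons (adjusted p = 0.0390 and 0.0386), as did edgeR's quasi-likelihood test with the mouse as a block against KAP1-deleted livers (adjusted p = 0.0454). Rpl22l1 was called higher against control livers by edgeR's quasi-likelihood test with no filter on low counts (adjusted p = 0.000376) and by gene totals (adjusted p = 0.0284).

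Within a library, Rpl22l1 counts came to 68.4% and 60.0% of Rpl22 counts in tumours, 34.9% and 26.9% in KAP1-deleted livers, against 30.8% and 13.2% in control livers. The mean was 64.2 ± 5.95% in tumours, 30.9 ± 5.67% in KAP1-deleted livers and 22.0 ± 12.5% in control livers (SD, n = 2 each). The tumours lay apart from both liver groups on this measure, which no scaling alters, and the liver groups overlapped. The difference in this measure was not tested.

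A similar order held for Rps27l, a paralog induced by p53, and Rps27. Rps27l counts were 132% and 119% of Rps27 counts in tumours, 83.2% and 104% in KAP1-deleted livers, against 66.3% and 97.2% in control livers. The partner varied more than the paralog: Rps27 had 87 and 99.0 CPM in tumours, 154 and 117 CPM in KAP1-deleted livers, against 151 and 112 CPM in control livers, while Rps27l ranged from 100 to 128 CPM over all 6 libraries. Rpl36al counts were 86.2% and 99.3% of Rpl36a counts in tumours, 56.2% and 79.8% in KAP1-deleted livers, against 77.5% and 90.2% in control livers, with tumours and control livers overlapping. The processed pseudogene Rps4l differed most inside a group, with 5.59 and 1.28 CPM in the 2 tumours. The related genes Mrps18a, Mrps18b and Mrps18c were not called by edgeR's quasi-likelihood test with TMM, though by gene totals Mrps18a was called higher over KAP1-deleted livers (adjusted p = 0.0476). Mrps18c had 13.2 and 15 CPM in tumours, 18.1 and 20.9 CPM in KAP1-deleted livers, against 17.7 and 18.5 CPM in control livers.

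Changes of genes with and without each start-site motif are given as a description. Cytosolic genes with the pyrimidine run had a median log2 fold change of -0.20 (n = 28) in tumours over KAP1-deleted livers, and those without it -0.13 (n = 32); over control livers the medians were -0.12 and -0.14. Mitochondrial genes with the NRF1 motif had -0.28 (n = 13) and those without it -0.32 (n = 54) over KAP1-deleted livers; over control livers the medians were -0.41 and -0.33. For the ETS motif the mitochondrial medians were -0.36 (n = 24) and -0.29 (n = 43), for the YY1 motif -0.45 (n = 12) and -0.29 (n = 55), and for the E-box -0.52 (n = 5) and -0.29 (n = 62) over KAP1-deleted livers. Over control livers the medians with and without the motif were -0.39 and -0.23 for ETS, -0.46 and -0.32 for YY1, and -0.50 and -0.31 for the E-box. Of the 4 windows shown, those of Rps9, Rps6 and Mrpl12 hold the run and that of Mrps15 holds none of the motifs searched.

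Some ribosomal proteins have names that the rule does not take. By edgeR's quasi-likelihood test, 6.64% and 7.76% of all genes were called lower in tumours over KAP1-deleted and control livers. Of 7 further cytosolic proteins tested, 1 was called lower in tumours in each comparison. This was Fau, which encodes RPS30 fused to a ubiquitin-like protein. It had 51.0 and 51.4 CPM in tumours, 80.3 and 85.2 CPM in KAP1-deleted livers, against 77.5 and 88.9 CPM in control livers (adjusted p = 0.0356 and 0.0310, edgeR's quasi-likelihood test). Of 5 further mitochondrial proteins, Chchd1 was called lower against KAP1-deleted livers and Aurkaip1 against control livers. Whether 1 call in lists of this size exceeds the shares of all genes was not tested.

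Genes that share the TOP motif with the cytosolic ribosome, here 15 translation factors and related genes, had a median log2 fold change of -0.41 in tumours over KAP1-deleted livers and -0.30 over control livers. By gene totals the medians were 0.13 and 0.17. None was called by edgeR's quasi-likelihood test, where 6.64% and 7.76% of all genes were called lower. At an unadjusted p under 0.05, 7 and 6 were lower, against 17.2% and 17.0% of all genes. DESeq2 called 1 and 2 lower, where it called 9.03% and 9.84% of all genes lower. With limma-voom the counts were 0 and 1, where it called 1246 and 1363 of 17558 genes lower. Eef2, the factor that moves the ribosome along the messenger, had 427 and 438 CPM in tumours, 611 and 696 CPM in KAP1-deleted livers, against 647.3 and 794 CPM in control livers. Its adjusted p by edgeR's quasi-likelihood test was 0.124 and 0.0665.

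Genes that build the cytosolic ribosome lay on the other side of the median. Of 51 biogenesis genes, 1 was called higher and 1 lower in each tumour comparison by edgeR's quasi-likelihood test. Of all genes, 4.8% and 6.15% were called higher and 6.64% and 7.76% lower. DESeq2 called 5 higher over KAP1-deleted livers and 3 over control livers, and 1 lower in each. It called 7.14% and 8.3% of all genes higher and 9.03% and 9.84% lower. The median was 0.16 over KAP1-deleted livers and 0.18 over control livers, 0.20 above the median of all genes in each. Above that median were 37 and 35 of the 51. By gene totals the medians were 0.70 and 0.65, with 24 and 22 genes called higher, beside 24.6% and 22.6% of all genes. The gene called higher was Nvl, an ATPase that releases assembly factors from the large subunit, with 28.7 and 26.3 CPM in tumours, 16.7 and 15.6 CPM in KAP1-deleted livers, against 16.2 and 17.4 CPM in control livers. The one called lower was Nop53, an assembly factor of the large subunit, with 15.8 and 14.9 CPM in tumours, 28.1 and 28.2 CPM in KAP1-deleted livers, against 34.5 and 32.4 CPM in control livers. Whether this list differs from the ribosomal proteins was not tested.

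Other parts of mitochondrial translation were counted in the same way. Of 13 factors for initiation, elongation and release, 1 was called lower in each tumour comparison, the initiation factor Mtif3. Of 21 assembly and ribosomal RNA modification genes it was 1, Rcc1l, and of 17 mitochondrial tRNA synthetases 0, all by edgeR's quasi-likelihood test, where 6.64% and 7.76% of all genes were called lower. Of the synthetases, 0 were higher and 2 lower against KAP1-deleted livers at an unadjusted p under 0.05 (edgeR's quasi-likelihood test), beside 11.9% and 17.2% of all genes. Against control livers 1 was higher and 3 were lower, beside 12.9% and 17% of all genes. DESeq2 called 0 synthetases against KAP1-deleted livers and 1 lower against control livers, where it called 9.03% and 9.84% of all genes lower. With limma-voom 0 were called in both. The medians of these lists against KAP1-deleted livers were -0.23, -0.16 and -0.16. Among 14 genes for abundant mitochondrial proteins, the prohibitins Phb and Phb2 were called lower against KAP1-deleted livers and Phb2 against control livers, and the median was -0.20 and -0.17. Tfam, which packs mitochondrial DNA, had 46.3 and 40.9 CPM in tumours, 50.2 and 46.2 CPM in KAP1-deleted livers, against 43.0 and 41.6 CPM in control livers, with tumours and livers overlapping. By gene totals the 4 list medians against KAP1-deleted livers were 0.30, 0.38, 0.38 and 0.34, in the order given.

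Of 18 regulators of ribosomal protein genes that passed the filter, Max and Gabpb1 were called higher and Esrra lower in both tumour comparisons, and Eif4ebp2 lower against control livers, all by edgeR's quasi-likelihood test. These are 2 higher and 1 lower, and 2 higher and 2 lower, where 4.8% and 6.15% of all genes were called higher, 6.64% and 7.76% lower. Against control livers, DESeq2 called 3 higher and 3 lower, where it called 8.3% of all genes higher and 9.84% lower. With limma-voom 3 were called higher and 2 lower, where it called 1068 of 17558 genes higher and 1363 lower. Gabpb1, a subunit of the ETS factor GABP, had 22.6 and 21.2 CPM in tumours, 11.6 and 9.70 CPM in KAP1-deleted livers, against 10.5 and 7.88 CPM in control livers. Its DNA-binding partner Gabpa had 48.3 and 49.5 CPM in tumours, 70.6 and 64.9 CPM in KAP1-deleted livers, against 66.6 and 57.9 CPM in control livers, and was not called. Esrra, a nuclear receptor for genes of mitochondrial metabolism, had 9.64 and 7.60 CPM in tumours, 16.4 and 18.0 CPM in KAP1-deleted livers, against 13.9 and 17.3 CPM in control livers. Max had 11.6 and 12.5 CPM in tumours, against 5.84 to 7.61 CPM in the 4 livers. Myc, its partner, had 6.75 and 3.66 CPM in tumours, 2.52 and 4.05 CPM in KAP1-deleted livers, against 2.37 and 1.0 CPM in control livers, and was not called (adjusted p = 0.0590 against control livers, edgeR's quasi-likelihood test). In KAP1-deleted livers against control livers, 0 genes of these lists were called by edgeR's quasi-likelihood test, DESeq2 or limma-voom, and 1, Chchd1, was higher at an unadjusted p under 0.05.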

How the data were processed

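RNA of 6 mouse tissue samples was sequenced from stranded TruSeq libraries, per the labels' protocols. The deposited tables hold raw counts per Ensembl gene. The authors made them with HTSeq 0.6.1 on mm9 after TopHat alignment (version not given in the sources used here), per the submitters' processing notes. The sources name no annotation or strand setting, so antisense and overlapping genes are uncertain. Each table lists 0 multiply aligned reads. Rows naming no gene (20.9% to 36.7% of counted reads) entered neither library sizes nor tests.

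Symbols were matched by Ensembl identifier to the GRCm38 reference (32919 of 37991 genes). Genes passing edgeR's filterByExpr (minimum count 10, total 15) numbered 17558. The main test was edgeR 4.0.16 (R 4.3.3), quasi-likelihood with TMM scaling and 1 mean per group over all 6 libraries, Benjamini-Hochberg adjustment over all genes tested and a threshold of 0.05. In this fit the residual degrees of freedom were 3 and the common biological coefficient of variation 0.230. The fit with the mouse as a block leaves fewer, since each control liver there has a coefficient of its own. SE is the log2 fold change over the square root of F. CPM are counts relative to the TMM-scaled library size (edgeR's cpm function scale). DESeq2 1.42.0, limma 3.58.1, other scalings and filters, blocks and left-out libraries were alternatives. On simulated counts for tumour over KAP1-deleted liver (17465 genes), 27% of genes changed by 1 log2 unit and 99% of those changed by 2 were recovered. Of unchanged genes, 0.0348% were called. The simulation changed only 200 genes and gave every gene the common coefficient of variation, so these shares do not describe the members. In the data the median SE in that comparison was 0.18 for cytosolic and 0.20 for mitochondrial genes, beside 0.27 for all genes.

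The mouse code in the sample titles pairs each tumour with a KAP1-deleted liver; deviations of the paired libraries from their group means correlated at r = 0.18 over all genes tested. Named genes are the called members (the smallest p-values where fewer were called), the 3 with most and fewest counts, paralogs and the most variable members, plus genes singled out in the text. Members ranked by fold change had a mean of at least 1 CPM. The members and gene lists were chosen with earlier results of these data known. Words of 31 bases came from GENCODE transcripts on GRCm38, which is not the build of the counts. Depth was 39723997 to 62178752 gene counts, so counting error is small beside the spread between libraries for all but the rarest members.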

Additional observations from a re-analysis of the deposited data

Results flagged for a closer look

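Reads counted in no annotated gene, which enter none of the comparisons, made up 35.0% of counted reads in tumour 1 and 31.3% in tumour 2, against 22.3% and 18.1% in KAP1-deleted and 25.2% and 18.0% in control livers. Both tumours were above the highest control liver. The part of these reads in the values of the ribosomal protein genes was not tested.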

How the results depend on the processing

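With 2 libraries a group, most members' differences are smaller than this design can call, and counts of called members moved with the setting. No alternative called a member between KAP1-deleted and control livers. For tumours over KAP1-deleted livers (TMM: 0 cytosolic genes higher, 1 lower; 0 and 4 mitochondrial), gene totals gave 20 and 0 cytosolic, 6 and 0 mitochondrial, with medians of 0.38 and 0.22. There, DESeq2 gave 1 higher and 3 lower cytosolic and 7 lower mitochondrial genes. No filter gave 9 lower mitochondrial genes, where 2256 of all 27238 genes were called lower. Upper-quartile scaling, a mean CPM of at least 5 and a fit of only the 2 groups each gave 1 higher cytosolic gene. For tumours over control livers (2 cytosolic and 3 mitochondrial lower), gene totals gave 7 higher and 0 lower cytosolic, 1 higher and 1 lower mitochondrial, with medians of 0.34 and 0.12. There, DESeq2 gave 7 and 5 lower, no filter 1 higher cytosolic and 9 lower mitochondrial, and upper-quartile scaling and the fit of 2 groups each 1 lower cytosolic. Without a filter, 1801 of all 27238 genes were called higher and 2314 lower over control livers. Gene totals moved the median of all genes to 0.50 and 0.45 and its calls to 4317 higher and 520 lower (842 and 1165 with TMM), and to 3962 and 626 (1080 and 1363). The scaling factors were highest in tumours; why was not tested.

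The replicate block by mouse gave 1 higher and 2 lower cytosolic and 11 lower mitochondrial genes for tumours over KAP1-deleted livers. The replicate block by mouse code series gave 2 and 9 lower there, and 5 and 7 lower over control livers. Among all 17558 genes, the block by series called 1737 lower over KAP1-deleted and 1845 lower over control livers. The block by mouse called 2318 of them lower over KAP1-deleted livers. A block changed no other call count by more than 1.5 times.

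With each library left out in turn, the mitochondrial median for tumours over KAP1-deleted livers ran from -0.42 to -0.24, or -0.41 to -0.20 relative to all genes. Over control livers it ran from -0.46 to -0.16, or -0.48 to -0.14 relative to all genes. Calls of members, and of all genes, changed with the library left out. Where a group kept 1 library, that library is assumed to vary like the others. Gene totals and the shares of gene counts were chosen after seeing the data. Leaving out pseudogenes and members with few unique words changed no count by more than 1.5 times.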
